A study of Arabidopsis thaliana with 12 samples.

Results

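Described here are the 130 probe sets that read lower in Arabidopsis thaliana roots after 25 min with each of 3 wall-derived oligosaccharides. They were chosen on the deposited log2 values: of 22746 tested probe sets, 135 (0.594%) had a group mean at least 0.8 log2 under the control mean with cellobiose, with chitin and with oligogalacturonides (OGs). The condition was met with cellobiose by 1.81% of all tested probe sets, with chitin by 1.5% and with OGs by 1.0%. Of the 135, 5 read genes that the rule leaves out by name (LEA4-5, SIS, SIM, PUB19 and AT2G28200), and the other 130 are called members below. The annotation used here lists 1 gene for 42 members, several genes for 1 and none for 87, which appear by probe set ID. Just inside the threshold, the weakest of the 3 changes was -0.8005 for 263490_at and -0.8044 for AT4G13100, and just outside it was -0.7982 for 250099_at and -0.7937 for AT4G03150.

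All samples were roots of 7-day-old seedlings of the ecotype Col-0, grown on nylon mesh so that roots could be cut from shoots and pooled from many seedlings. The 4 groups of 3 biological replicates were a control with no elicitor, cellobiose (a glucose disaccharide from cellulose), chitin (chito-oligomers in the design text, pieces of a fungal wall polymer of N-acetylglucosamine) and OGs (galacturonic acid chains from pectin), all at 25 min. No dose is stated in the sources used here. RNA samples were screened by qRT-PCR for their WRKY30 profile before they were hybridized to Affymetrix ATH1 arrays. The array medians lay between 6.50 and 6.60 log2, so a change that all genes share would not show. Of the root markers, 3 of 12 had a named probe set: PYK10, a root beta-glucosidase, was at 13.44 ± 0.08 (SD, n = 3) in controls, and the root hair expansins EXPA7 and EXPA18 at 9.68 ± 0.44 and 9.81 ± 0.44. Of the shoot markers 1 of 8 had one, RCA (Rubisco activase), at 11.11 ± 0.56 in controls, 10.14 ± 0.69 with cellobiose, 10.84 ± 0.19 with chitin and 10.71 ± 0.20 with OGs. The part of shoot RNA in the members' values was not tested, and in pooled roots fewer cells of a type and less RNA per cell cannot be told apart.

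Plants detect wall fragments with receptors at the cell surface, and calcium, reactive oxygen and MAP kinase signals then change transcript levels within minutes. How far a transcript can drop in so short a time depends on how fast it decays, and mRNAs of transcription factors and ubiquitin ligases are among the short-lived ones in plants. Among named members there are transcription factors of the PLATZ and DREB families, RING-type ubiquitin ligases and enzymes. Decay was not measured here, and whether these classes are more frequent among members than among all probe sets was not tested.

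Control means of the members ran from 5.16 to 11.75 log2 with a median of 8.24, and 126 had a mean of at least 5 over all 12 arrays. The median change was -1.21 log2 with cellobiose, -1.27 with chitin and -1.09 with OGs, against -0.03, -0.04 and -0.03 over all probe sets. These values chose the members and are given as a description. At least 2-fold lower with every elicitor were 68 members, and at least 4-fold lower 4. On 88 members all 9 elicitor arrays lay below all 3 control arrays, an arrangement that 5.68% of all tested probe sets showed. In all 9 pairs of elicitor and control arrays with the same replicate number, 124 were lower. The share of all probe sets lower in all 9 pairs is not given here. The rule asks for low group means, so nothing is read from either count.

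In the limma fit of the whole table, with an adjusted p under 0.05 as the threshold for a call, 93 members were called lower with cellobiose (3.91% of all probe sets were), 95 with chitin (3.83%) and 51 with OGs (0.884%). The rule used these contrasts, so nothing is read from the counts. With all 3 elicitors 45 were called lower (0.651% of all probe sets were), and 25 were called with none. Of the named members, 7 were called with none: AT5G19970, AT1G64590, HIS1-3, AT2G23110, AT1G49450, AT3G03170 and AT2G41190. Leaving out arrays moved the counts of members and of all probe sets. Without control replicate 3 the members called with cellobiose, chitin and OGs were 24, 30 and 2, and all probe sets called in either direction 773, 879 and 207, against 1966, 2002 and 924 with every array. Without control replicate 2 they were 40, 49 and 8 members of 1330, 1221 and 310 called. For cellobiose they were 30 members of 853 without its replicate 1 and 46 of 1663 without its replicate 2. For chitin they were 34 of 980 without its replicate 2 and 38 of 1232 without its replicate 3. For OGs they were 17 of 484, 85 of 1369 and 13 of 390 without its replicates 1, 2 and 3.

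The 11 deepest members have no listed gene. The lowest, 251272_at, was at 9.73, 9.94 and 9.91 on the control arrays, 6.73, 4.80 and 7.58 with cellobiose, 7.98, 6.40 and 5.63 with chitin and 7.50, 7.75 and 5.68 with OGs. All elicitor arrays lay well under the lowest control array, and the changes were -3.49, -3.19 and -2.88 log2 with cellobiose, chitin and OGs (SE 0.76). The probe set 255250_at was at 7.48, 8.38 and 8.64 on the control arrays, 4.41, 5.24 and 5.95 with cellobiose, 4.93, 4.82 and 5.11 with chitin and 5.97, 6.24 and 5.31 with OGs. It too had no overlap, with changes of -2.97, -3.22 and -2.33 log2 with cellobiose, chitin and OGs (SE 0.36). 257280_at and 258570_at complete the members that were at least 4-fold lower with every elicitor, at 6.85-, 6.44- and 5.26-fold lower with cellobiose, chitin and OGs and at 4.03-, 5.08- and 4.46-fold lower with cellobiose, chitin and OGs. The 87 members with no listed gene had mean changes over the elicitors from -3.19 to -0.86 log2 (median -1.21), and the 42 of 1 gene from -1.84 to -0.87 (median -1.21).

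Members of the PLATZ family, plant zinc-binding proteins first described in pea as binding A/T-rich DNA, were 3 of the 42 named ones. AT1G76590 was at 9.16, 9.47 and 9.64 on the control arrays, 7.37, 7.31 and 7.94 with cellobiose, 8.22, 8.0 and 7.55 with chitin and 8.30, 8.69 and 8.30 with OGs. It was 3.70-, 2.83- and 1.99-fold lower with cellobiose, chitin and OGs, and every elicitor array lay below every control array. AT1G21000 was at 10.44, 10.99 and 10.95 on the control arrays, 9.39, 8.95 and 9.81 with cellobiose, 9.77, 9.54 and 9.12 with chitin and 9.45, 10.07 and 9.62 with OGs. AT1G32700 was at 11.33, 12.01 and 11.92 on the control arrays, 10.25, 9.74 and 11.08 with cellobiose, 10.62, 10.52 and 10.24 with chitin and 10.51, 11.24 and 10.59 with OGs. The groups did not overlap for either gene, and cellobiose replicate 2 was the lowest array of both. Their changes were -1.41, -1.32 and -1.08 log2 with cellobiose, chitin and OGs (SE 0.27) for AT1G21000 and -1.39, -1.29 and -0.97 log2 with cellobiose, chitin and OGs (SE 0.33) for AT1G32700.

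The other measured PLATZ genes did not meet the rule. Of 9 family genes looked up after the members were known, 7 had a named probe set, and the 4 that are not members were AT1G43000, AT4G17900, AT1G31040 and AT5G46710. AT5G46710 was at 6.43 ± 0.13 in controls (SD, n = 3) and 7.58 ± 0.41 with chitin, and rose with chitin by 1.15 ± 0.24 log2 (SE; limma adjusted p = 0.0161; 4.97% of all probe sets were called higher). Its values with cellobiose (0.58) and OGs (0.87) did not pass (adjusted p = 0.193 and 0.0812). AT4G17900, at 10.27 in controls, differed by 0.09, 0.20 and 0.11 log2 with cellobiose, chitin and OGs and passed with none. AT1G43000 and AT1G31040, at 3.86 and 3.93 in controls, passed with none.

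Members of the A-4 subgroup of DREB factors, AP2/ERF proteins related to those that act in cold and drought, were AT4G16750 and AT3G60490. AT4G16750 was at 7.45, 7.37 and 7.73 on the control arrays, 5.81, 5.73 and 6.03 with cellobiose, 6.26, 6.09 and 5.52 with chitin and 5.82, 5.88 and 4.71 with OGs. It was deepest with OGs, where replicate 3 was the lowest array, and the 3 changes were -1.66, -1.56 and -2.05 log2 with cellobiose, chitin and OGs (SE 0.28). AT3G60490 was at 8.02, 7.88 and 7.87 on the control arrays, 6.91, 5.89 and 7.00 with cellobiose, 7.10, 6.21 and 6.41 with chitin and 6.45, 7.03 and 7.06 with OGs. The controls spanned a narrow range and lay above all elicitor arrays.

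The other measured genes listed here under this subgroup did not meet the rule, and 1 of them rose. Of the 16 DREB genes so listed, also looked up after the members were known, 14 had a named probe set. Of these, 12 are not members. Whether each listed gene belongs to the subgroup was not tested. AT1G22810 went the other way, from 3.77 ± 0.25 in controls to 8.16 ± 1.17 with cellobiose and 7.72 ± 0.84 with chitin (SD, n = 3). It rose by 4.38 and 3.94 ± 0.42 log2 (SE; limma adjusted p = 0.000438 and 0.000621; 4.73% and 4.97% of all probe sets were called higher). Whether its control value is above background was not tested, so the size of the rise is uncertain. With OGs it was 1.54 log2 from control and did not pass (adjusted p = 0.0863). AT2G44940 differed from control by -0.77, -0.76 and -0.64 log2, without passing (adjusted p = 0.0501, 0.0532 and 0.139). The other 10, among them TINY and TINY2, passed with no elicitor.

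RING-type proteins, most of which are E3 ubiquitin ligases that mark proteins for degradation, are read by 5 named members. AT5G42200 was at 7.29, 8.11 and 8.15 on the control arrays, 5.49, 4.70 and 6.96 with cellobiose, 5.90, 6.48 and 6.18 with chitin and 5.73, 6.95 and 6.69 with OGs. Cellobiose replicate 2 was lowest and cellobiose replicate 3 lay close to OGs replicate 2, and the gene was 4.38-, 3.16- and 2.62-fold lower with cellobiose, chitin and OGs. AT1G72200 was at 9.57, 10.60 and 10.58 on the control arrays, 8.89, 9.28 and 9.76 with cellobiose, 8.91, 9.05 and 9.33 with chitin and 9.07, 9.82 and 8.75 with OGs. Here control replicate 1 lay below the other controls and under cellobiose replicate 3 and OGs replicate 2. AT5G17600 was at 5.39, 5.67 and 6.32 on the control arrays, 4.45, 4.74 and 4.97 with cellobiose, 4.72, 4.43 and 4.42 with chitin and 4.87, 4.97 and 4.38 with OGs. Its groups did not overlap, and the changes were -1.08, -1.27 and -1.06 log2 with cellobiose, chitin and OGs (SE 0.25). AT5G10650 differed by -0.89, -1.17 and -0.84 log2 with cellobiose, chitin and OGs (SE 0.21). AT4G13100, the one nearest the threshold, differed by -0.89, -0.94 and -0.80 log2 with cellobiose, chitin and OGs (SE 0.13), with SDs of 0.15 to 0.21 within groups of 3, and its groups did not overlap.

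HIS1-3, AT2G21820 and AT2G23110 are described together as genes known from seeds or water stress, a grouping made by hand after their values were seen. HIS1-3, a linker histone variant induced by drought and abscisic acid, was at 10.38, 11.27 and 11.44 on the control arrays, 9.57, 9.29 and 10.18 with cellobiose, 10.10, 10.05 and 9.23 with chitin and 9.85, 10.62 and 9.72 with OGs. Control replicate 1 was below OGs replicate 2, and the changes were -1.35, -1.24 and -0.96 log2 with cellobiose, chitin and OGs (SE 0.37). The other linker histones, HIS1-1 and H1.2, were at 10.93 ± 0.23 and 10.77 ± 0.27 in controls, and did not pass with any elicitor; their values were -0.46, -0.44 and -0.55 log2 for HIS1-1 and -0.34, -0.27 and -0.41 for H1.2, the first of which became 0.03 under the poly-A spike-in scaling described below. AT2G21820, annotated as a seed maturation protein, was at 7.28, 7.17 and 7.36 on the control arrays, 5.67, 4.89 and 5.76 with cellobiose, 6.49, 5.28 and 5.18 with chitin and 5.92, 6.25 and 4.97 with OGs. Its controls were tight and its groups did not overlap. AT2G23110, a late embryogenesis abundant (LEA) protein of group 6, was at 6.68, 6.10 and 6.78 on the control arrays, 5.14, 5.04 and 5.54 with cellobiose, 5.91, 5.72 and 5.03 with chitin and 6.32, 5.48 and 4.67 with OGs. OGs replicate 1 was above control replicate 2, and without OGs replicate 3 the change with OGs was -0.62 rather than -1.03 log2. Its relative AT2G23120, at 12.94 in controls, differed by -0.22, -0.28 and -0.14 log2 (0.16 with cellobiose under that scaling) and passed with none.

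**Figure D1:**
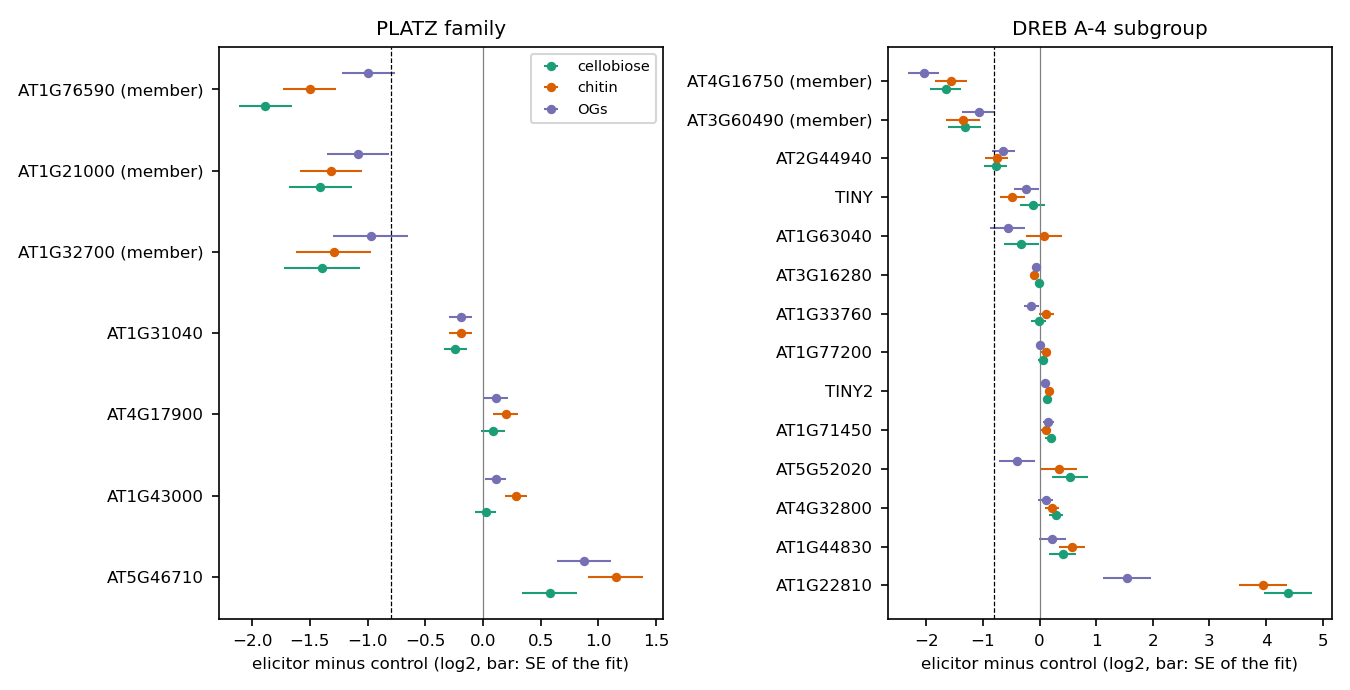
Change with each elicitor (x axis, log2 against control, bars are the SE of the fit) for 7 PLATZ genes and 14 genes listed as DREB A-4. All have a named probe set, and the dashed line marks -0.8, the threshold that chose the members. The 3 and 2 member genes lie left of it with every elicitor. AT5G46710 and AT1G22810 lie farthest to the right of 0, and several other genes also lie to the right of 0.

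The deepest named member was AT1G49470, of a family of membrane proteins of unknown function. It was at 8.17, 8.70 and 8.90 on the control arrays, 5.93, 6.09 and 7.50 with cellobiose, 6.78, 6.53 and 6.16 with chitin and 6.72, 7.87 and 7.14 with OGs. OGs replicate 2 stayed nearest to the controls, and the groups did not overlap. Its neighbour AT1G49450, a WD40 repeat protein, is also a member, and no protein-coding gene lies between them in the RefSeq annotation. AT1G49450 was at 7.31, 8.42 and 7.82 on the control arrays, 7.00, 6.51 and 7.12 with cellobiose, 7.64, 7.30 and 6.02 with chitin and 7.09, 6.70 and 5.50 with OGs. It overlapped: chitin replicate 1 was above control replicate 1. Without chitin replicate 3 its change with chitin was -0.38 rather than -0.86 log2.

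AT5G03230, of a family named for senescence regulators (DUF584), was at 6.87, 7.96 and 8.59 on the control arrays, 5.43, 6.05 and 6.50 with cellobiose, 5.68, 5.39 and 5.64 with chitin and 6.15, 7.03 and 6.68 with OGs. Control replicate 1 lay under OGs replicate 2, and chitin gave the lowest and tightest group. AT3G26510, with a PB1 interaction domain, was at 10.05, 10.89 and 11.14 on the control arrays, 8.42, 9.12 and 9.54 with cellobiose, 8.85, 8.83 and 9.06 with chitin and 9.41, 10.20 and 9.36 with OGs. AT3G25640, a relative of the root hydrotropism protein MIZ1, was at 7.00, 7.09 and 7.29 on the control arrays, 5.38, 5.98 and 6.11 with cellobiose, 5.59, 5.61 and 5.41 with chitin and 6.35, 6.20 and 5.08 with OGs. AT3G26510 overlapped at OGs replicate 2, and AT3G25640 did not overlap. AT5G25280, a serine-rich protein, was at 11.02, 11.91 and 11.95 on the control arrays, 10.20, 10.81 and 10.87 with cellobiose, 9.63, 10.07 and 10.16 with chitin and 10.33, 11.33 and 10.39 with OGs. It was lowest with chitin, and OGs replicate 2 lay above control replicate 1.

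Enzymes are also among the named members. AT2G40230, an acyltransferase of the BAHD type, was at 7.88, 8.95 and 9.33 on the control arrays, 7.07, 7.81 and 8.11 with cellobiose, 7.29, 7.41 and 7.33 with chitin and 7.34, 8.13 and 7.40 with OGs. AT3G20015, an aspartyl protease, was at 7.10, 8.35 and 8.33 on the control arrays, 6.20, 6.79 and 7.46 with cellobiose, 6.18, 5.95 and 6.77 with chitin and 6.76, 7.41 and 6.86 with OGs. For both, cellobiose replicate 3 and OGs replicate 2 were above control replicate 1, and chitin gave the deepest change: AT2G40230 was 2.08-, 2.60- and 2.14-fold lower with cellobiose, chitin and OGs, and AT3G20015 was 2.16-, 3.10- and 1.89-fold lower with cellobiose, chitin and OGs. AT1G64590, a short-chain dehydrogenase, was at 7.91, 8.33 and 8.39 on the control arrays, 6.42, 5.95 and 7.37 with cellobiose, 7.32, 7.23 and 5.90 with chitin and 7.32, 8.04 and 5.96 with OGs. Its arrays spread widely within each elicitor, and without OGs replicate 3 the change with OGs was -0.53 rather than -1.10 log2.

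AT2G35585 was at 7.08, 7.84 and 8.01 on the control arrays, 5.28, 5.35 and 6.14 with cellobiose, 6.07, 6.04 and 5.61 with chitin and 5.80, 6.58 and 5.80 with OGs. It was 4.15-, 3.34- and 3.00-fold lower with cellobiose, chitin and OGs, with no overlap and with control replicate 1 and OGs replicate 2 nearest to each other. AT5G19970 was at 7.12, 8.80 and 8.77 on the control arrays, 6.43, 6.05 and 7.75 with cellobiose, 7.23, 6.23 and 6.12 with chitin and 5.94, 7.61 and 5.81 with OGs. It overlapped at cellobiose replicate 3, chitin replicate 1 and OGs replicate 2, all above control replicate 1. AT1G30260 was at 7.58, 7.73 and 7.85 on the control arrays, 5.84, 6.39 and 6.63 with cellobiose, 6.72, 6.44 and 5.96 with chitin and 6.44, 6.62 and 5.75 with OGs. AT3G52070 was at 7.57, 7.98 and 8.20 on the control arrays, 6.15, 6.46 and 6.52 with cellobiose, 6.75, 6.27 and 6.50 with chitin and 6.65, 6.96 and 6.45 with OGs. Neither of these overlapped, and AT3G52070 was the steadier within elicitors. AT1G19960 was at 7.76, 8.15 and 8.42 on the control arrays, 6.21, 6.92 and 6.80 with cellobiose, 7.36, 6.95 and 6.24 with chitin and 6.95, 6.73 and 7.01 with OGs. AT5G15190 was at 8.31, 8.96 and 8.98 on the control arrays, 7.77, 7.07 and 7.86 with cellobiose, 7.94, 7.60 and 7.32 with chitin and 7.35, 7.78 and 6.44 with OGs. Both were without overlap, and in AT5G15190 OGs replicate 3 was the lowest array.

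AT1G67340, an F-box protein with a MYND zinc finger, was at 7.38, 8.54 and 8.86 on the control arrays, 6.28, 7.03 and 7.47 with cellobiose, 6.51, 6.78 and 6.86 with chitin and 6.58, 8.08 and 7.61 with OGs. Control replicate 1 lay under 3 elicitor arrays, and the change with OGs, -0.84 log2, was -1.28 without control replicate 1, -0.54 without control replicate 3 and -0.42 without OGs replicate 1. AT3G03170 was at 8.35, 8.66 and 8.87 on the control arrays, 7.50, 7.16 and 8.0 with cellobiose, 7.74, 7.47 and 7.39 with chitin and 7.51, 8.23 and 7.01 with OGs. AT5G45310 was at 7.37, 7.40 and 7.60 on the control arrays, 6.38, 6.23 and 6.54 with cellobiose, 6.81, 6.55 and 6.13 with chitin and 6.77, 6.64 and 5.60 with OGs. In both, OGs replicate 3 was the lowest array and no groups overlapped. AT1G18290 was at 7.78, 6.73 and 6.85 on the control arrays, 5.69, 6.58 and 6.37 with cellobiose, 5.84, 5.96 and 5.28 with chitin and 6.58, 6.17 and 6.04 with OGs. Unlike most members it had control replicate 1 as its highest control, and without it the changes were -0.57 with cellobiose and -0.53 with OGs rather than -0.90 and -0.86 log2.

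The other 12 named members had mean changes from -1.05 to -0.87 log2, and 11 of them had no overlap between elicitor and control arrays (5.68% of all probe sets did not overlap in this way). The same differences chose them, so nothing is read from this count. Besides the RING genes AT1G72200, AT5G10650 and AT4G13100 they include AT1G48690, of the GH3 family, whose characterized proteins conjugate hormones to amino acids, with changes of -1.20, -0.98 and -0.88 log2 with cellobiose, chitin and OGs (SE 0.24). AT1G75800, a thaumatin-like protein, went from 11.11 ± 0.31 in controls to 10.08 ± 0.31, 10.12 ± 0.06 and 10.24 ± 0.14 with cellobiose, chitin and OGs (SD, n = 3). AT2G41190, of an amino acid transporter family, differed by -0.82, -0.85 and -1.25 log2 with cellobiose, chitin and OGs (SE 0.49), and OGs replicate 3 at 5.60 lay far under the other OGs arrays at 7.79 and 7.74. AT1G73480, of the monoacylglycerol lipase type, differed by -0.97, -0.84 and -1.15 log2 with cellobiose, chitin and OGs (SE 0.22). The rest were AT1G21680, AT5G19875, AT5G52550, AT1G28260 and AT4G33960.

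**Figure D2:**
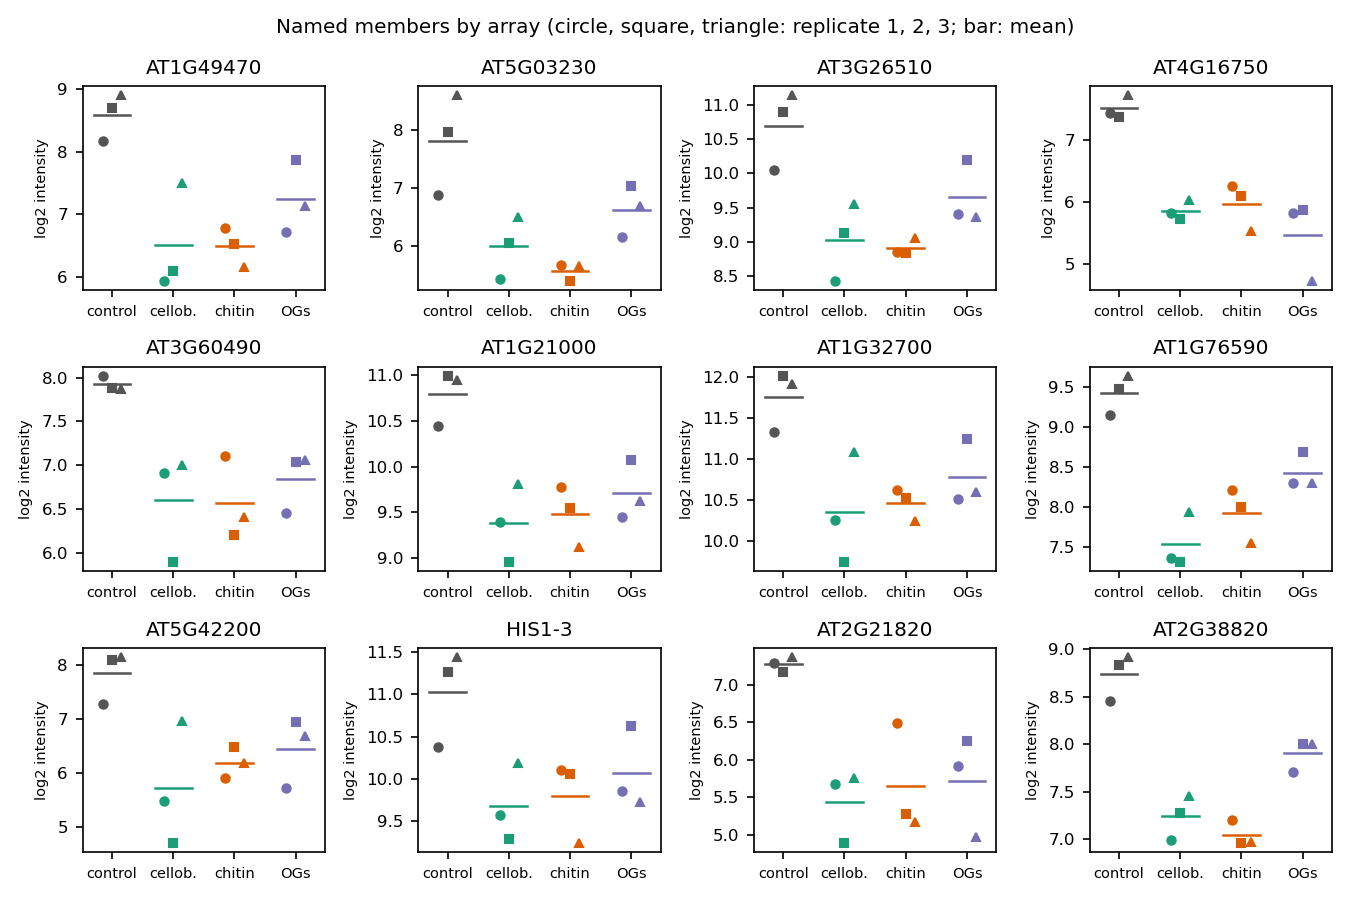
Values of 12 named members (y axis, log2 intensity) on each of the 12 arrays by group; symbols mark the replicate number and bars the group mean. The control mean is the highest in every panel, and for HIS1-3, AT5G03230 and AT3G26510 control replicate 1 lies under OGs replicate 2.

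Genes of related pathways, from lists drawn up with earlier results known, seldom had a named probe set, and few of those passed. In the cell cycle inhibitor list, 2 of 14 had one: SIM, which the rule leaves out, and SMR2, a relative of it. SMR2 fell with cellobiose by 0.90 ± 0.16 log2 (SE) and with chitin it fell by 0.76 ± 0.16 (limma adjusted p = 0.00894 and 0.0179; 3.91% and 3.83% of all probe sets were called lower), and with OGs it was at -0.60 (adjusted p = 0.0797). A named probe set was found for 3 of 31 genes listed for abscisic acid and dehydration and 2 of 22 for sugar starvation. It was found for 5 of 16 auxin, 2 of 9 cytokinin, 1 of 5 gibberellin and 3 of 9 reference genes. None of these genes passed with any elicitor, nor did the 3 root markers or RCA. Whether listed genes without a named probe set are among the 87 members with no listed gene was not tested. COR47, a dehydrin, was at 13.26 ± 0.18 in controls and differed by -0.20, -0.29 and -0.27 log2. COR15A and COR15B, the others of its list with a named probe set, were at 3.82 and 4.26 in controls. The cytokinin genes ARR15 and ARR16 were at 3.92 and 3.65. Whether these low values are above background was not tested, so a fall in them might not show. The list medians for abscisic acid and dehydration were -0.03, 0.02 and -0.07 log2, and those for auxin -0.12, -0.20 and -0.20, beside -0.03, -0.04 and -0.03 over all probe sets. No gene of the nitrate list had a named probe set.

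The rule did not set elicitors against each other, but every difference between elicitors is taken from group means that it used. As a description, the members were compared between elicitors in the same fit. Whether their doses were matched is not known here. No member passed for cellobiose against chitin (0.0176% of all probe sets did), cellobiose against OGs (0.044%) or chitin against OGs (0.106%); at an unadjusted p under 0.05 there were 6, 9 and 17 members, which is 4.62%, 6.92% and 13.1% of them, where 5.68%, 5.44% and 6.36% of all probe sets were. Of the 17, 16 were lower with chitin than with OGs. By direction alone, 86 of 130 were lower with chitin than with OGs and 84 lower with cellobiose than with OGs, 66.2% and 64.6%, beside 53.3% and 52.9% of all probe sets. The median difference was -0.13 log2 for chitin minus OGs, -0.07 for cellobiose minus OGs and 0.01 for cellobiose minus chitin. Each elicitor's change was cut at the same threshold by the rule, and the weakest change was with OGs in 75 members. The shares of all probe sets come without this cut, so nothing is read from the members' counts, shares and medians beside them.

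The member with the smallest p was AT2G38820. It was at 8.46, 8.84 and 8.92 on the control arrays, 6.98, 7.28 and 7.45 with cellobiose, 7.20, 6.96 and 6.96 with chitin and 7.71, 8.0 and 8.01 with OGs. The 3 OGs arrays lay between the controls and the other elicitors without touching either, and chitin minus OGs was -0.86 log2 (95% interval -1.17 to -0.56; limma adjusted p = 0.0714). Without chitin replicate 1 it passed (adjusted p = 0.00762), the only member that did. Next was 246522_at, at 6.70, 7.71 and 7.82 on the control arrays, 4.68, 5.30 and 5.84 with cellobiose, 5.01, 5.23 and 5.36 with chitin and 6.02, 6.63 and 6.34 with OGs, with chitin minus OGs of -1.13 log2 (95% interval -1.56 to -0.70; limma adjusted p = 0.0875). 252534_at had the widest difference, -1.77 log2 (95% interval -2.63 to -0.90; limma adjusted p = 0.207), with OGs replicate 2 at 8.88, among the controls at 8.84 to 9.08. Without OGs replicate 3 the members that passed were 246522_at, 252534_at and AT5G25280 (adjusted p = 0.0376, 0.0428 and 0.0340).

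Among the PLATZ members, the interval for cellobiose minus chitin held 0 in all 3. AT1G21000 differed by -0.09 log2 (95% interval -0.70 to 0.52; limma adjusted p = 0.971) and AT1G32700 by -0.10 log2 (95% interval -0.84 to 0.64; limma adjusted p = 0.973). AT1G76590 differed by -0.38 log2 (95% interval -0.90 to 0.14; limma adjusted p = 0.864), and for cellobiose minus OGs by -0.89 log2 (95% interval -1.41 to -0.37; limma adjusted p = 0.479). The DREB gene AT4G16750 was in the other order, with chitin minus OGs at 0.49 log2 (95% interval -0.14 to 1.12; limma adjusted p = 0.882).

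**Figure D3:**
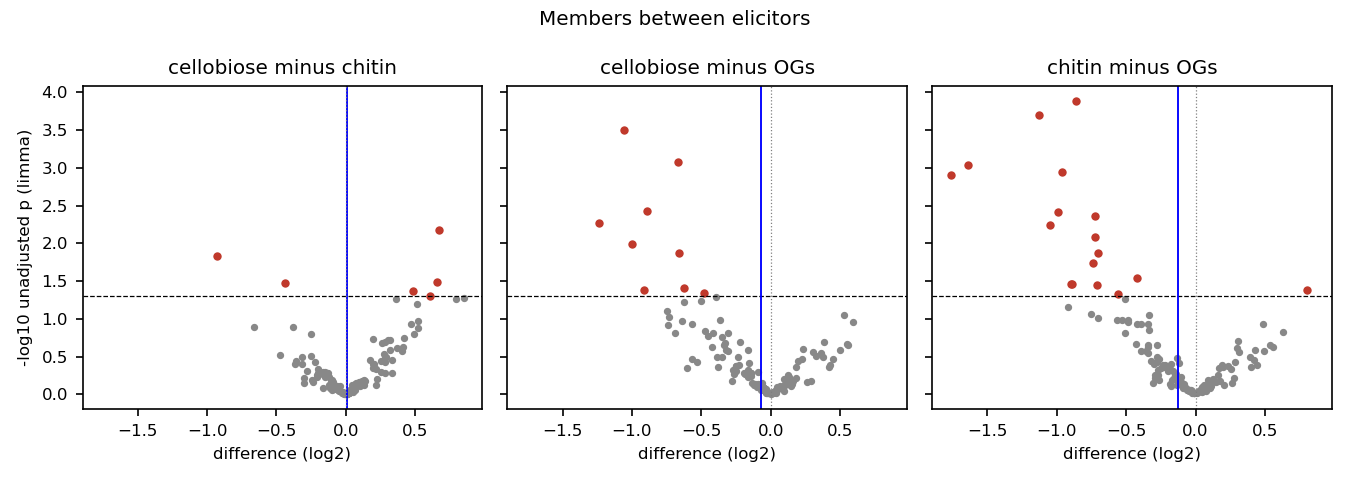
Difference between elicitors (x axis, log2) and -log10 of the unadjusted limma p (y axis) for the 130 members in each comparison; red points have an unadjusted p under 0.05 (dashed line) and the blue line is the members' median. Red points number 6, 9 and 17, and in the chitin minus OGs panel 16 of 17 lie left of 0.

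The level of 4 members depended on the replicate number, which the rule averages over (limma moderated F test, adjusted p under 0.05; 0.897% of all probe sets passed, and 4 of 130 is 3.08%). All 4 were highest in replicate 1 of every group. 266901_at was at 9.71, 5.25 and 5.79 on the control arrays, 8.53, 3.43 and 4.66 with cellobiose, 9.19, 4.55 and 3.95 with chitin and 7.72, 4.28 and 4.52 with OGs, so that replicate 1 lay 4.23 log2 above the mean of the others (adjusted p = 0.000290), and each elicitor array was still below the control of its own number. 262226_at, which the annotation pairs with both AT1G53903 and AT1G53885, was at 10.35, 8.53 and 8.63 on the control arrays, 9.10, 6.67 and 7.50 with cellobiose, 9.52, 7.09 and 6.68 with chitin and 9.12, 6.88 and 6.36 with OGs, 2.23 higher in replicate 1 (adjusted p = 0.00221). 252368_at was at 11.84, 10.28 and 10.03 on the control arrays, 10.74, 8.94 and 9.41 with cellobiose, 11.07, 8.93 and 8.21 with chitin and 10.04, 9.09 and 8.37 with OGs. In all of these the elicitor arrays of replicate 1 stood above the controls of some other replicate. 247600_at was at 8.95, 8.16 and 8.17 on the control arrays, 8.12, 7.15 and 7.37 with cellobiose, 8.25, 6.91 and 6.70 with chitin and 8.07, 7.32 and 6.55 with OGs. In replicate 1, 252368_at and 247600_at were 1.76 and 1.06 higher than in the others (adjusted p = 0.0106 and 0.0220). Each of the 4 was lower in 9 of 9 pairs, as 124 of the 130 members were. Members that passed numbered 2 without control replicate 1, where 113 of all probe sets passed rather than 204. They numbered 2 without cellobiose replicate 1 and 7 without OGs replicate 3. With single arrays left out, 111 to 246 of all probe sets passed.

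**Figure D4:**
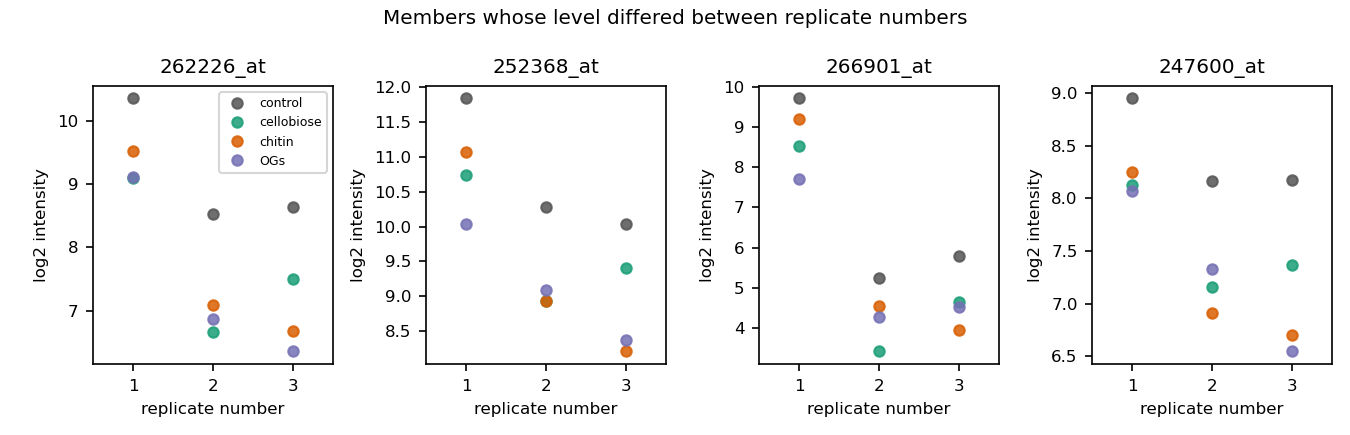
Values (y axis, log2 intensity) of the 4 members whose level differed between replicate numbers (x axis), coloured by group. Replicate 1 is highest in each group, and the control point is the top one at every replicate number.

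Arrays of a group differed in how low the members were. Relative to the control mean, the members' median was -1.41, -1.45 and -0.83 log2 on cellobiose arrays 1, 2 and 3, -1.01, -1.30 and -1.54 on chitin arrays and -1.17, -0.72 and -1.42 on OGs arrays. Cellobiose replicate 3 and OGs replicate 2 were the shallowest: of the 130 members, 112 had cellobiose replicate 3 as the highest of its group and 103 OGs replicate 2, beside 35.5% and 37.1% of all probe sets. The controls stood at -0.33, 0.13 and 0.19. Control replicate 1 was the lowest control on 100 members (76.9%, beside 42.9% of all probe sets). Of 22746 tested probe sets, 641 were called higher with every elicitor. For each elicitor taken singly the shares called higher were 3.18% with OGs, 4.73% with cellobiose and 4.97% with chitin. The 641 also had control replicate 1 as the outermost control, with medians of 0.26, -0.11 and -0.14 in the controls. They were least raised on OGs replicate 2, at 1.03 against 1.33 and 1.65 on OGs replicates 1 and 3. Chosen without control replicate 1, members would number 220, with 122 of the 130 among them.

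**Figure D5:**
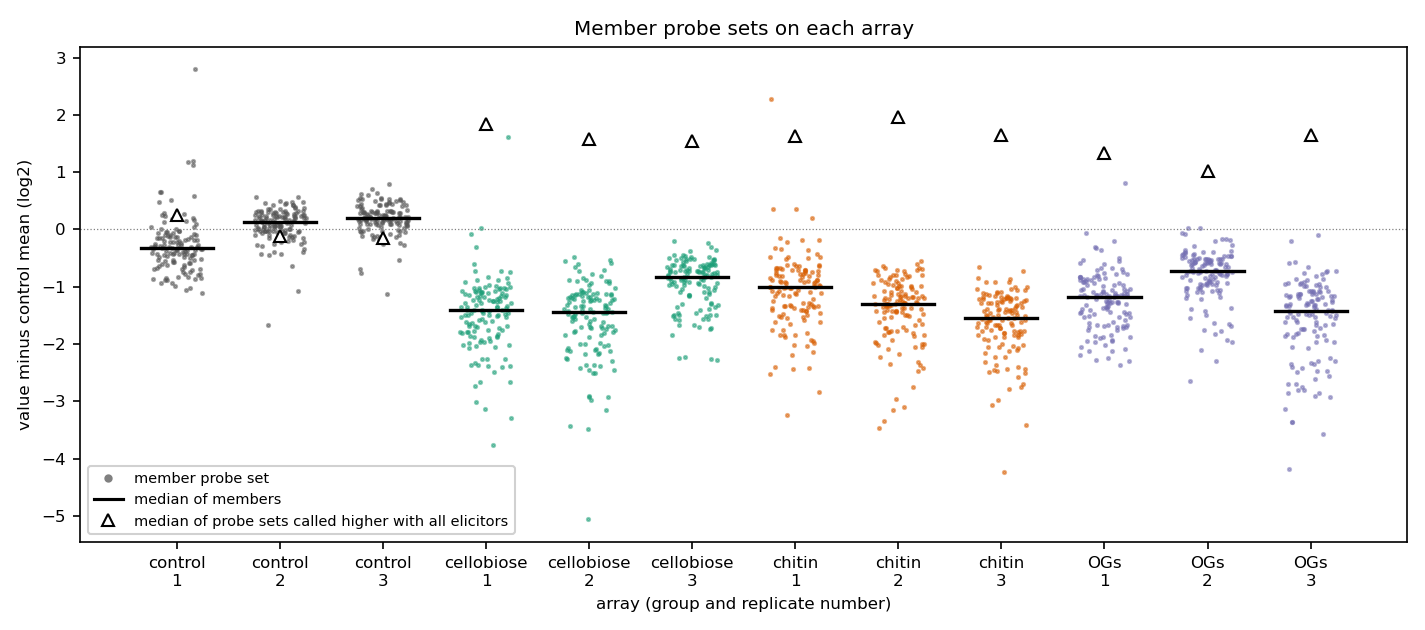
Each point is 1 of the 130 members on 1 array (y axis, value minus the control mean in log2; x axis, array by group and replicate); bars are member medians and triangles the median of the 641 probe sets called higher with all elicitors. Member medians run from -0.72 to -1.54 on elicitor arrays, and control replicate 1 sits at -0.33 while the other controls lie above 0.

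Choosing with 2 replicate numbers and reading the remaining one gives values that the choice did not use. Chosen on replicates 2 and 3, 177 probe sets met the rule, and in replicate 1 their median change was -0.93, -0.62 and -0.73 log2 with cellobiose, chitin and OGs. Chosen on replicates 1 and 3, 141 did, with medians of -1.35, -1.30 and -0.70 in replicate 2. Chosen on replicates 1 and 2, 66 did, 62 of them among the 130, with -1.12, -1.92 and -1.76 in replicate 3. Between 92.2% and 100% of the chosen probe sets were below the control of the replicate that was read, beside 52.5% to 58.6% of all probe sets. The threshold of -0.8 was met again by fewer: in replicate 1 by 112, 56 and 79 of the 177 with cellobiose, chitin and OGs, in replicate 2 by 113, 108 and 65 of the 141, and in replicate 3 by 52, 62 and 62 of the 66. With chitin the median of the 177 was -1.38 in the replicates that chose them and -0.62 in replicate 1. Within a replicate number the 3 elicitors share 1 control array, so the 3 medians of a replicate are not independent.

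Scaled to the 24 poly-A spike-in probe sets, which read RNAs added to each sample, the median of all probe sets moved to 0.34, 0.17 and 0.20 log2 with cellobiose, chitin and OGs. The members' medians were then -0.83, -1.06 and -0.86. The spike-in means lay -0.38, -0.21 and -0.23 log2 from control with cellobiose, chitin and OGs. The scaling takes these amounts off every change alike. Each member is at -0.8 or lower by the rule, so none could reach control in this way. That all 130 stayed below control was thus fixed in advance, and 53 still met the threshold of -0.8.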

How the data were processed

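Root RNA was read on 12 Affymetrix ATH1 arrays. The deposited values are on the log2 scale and were made by the authors with GCRMA, per the series' design text; Affymetrix Expression Console is named in the submitters' processing notes, with no version. Of 22810 rows, 64 control probe sets were set aside. Gene names came from GEO's platform table, with loci and symbols from RefSeq TAIR10.1 (13513 tested probe sets have 1 gene).

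Group means minus the control mean chose the members. One limma 3.58.1 model (R 4.3.3), treatment plus replicate number as a block since the design text takes ratios per sample pair, was fitted to all 12 arrays with eBayes (6 residual and 3.09 prior degrees of freedom). Tests were two-sided, with Benjamini-Hochberg adjustment over 22746 probe sets per contrast. Scripts were tested on simulated data. Array number limits the precision.

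The members and lists were chosen with earlier results of these data known. The first 30 members of 1 gene by mean change were to be named; later ones and the families were added after values were seen. Alternatives were single arrays left out, no block, an intensity trend, a mean of at least 5, only the groups compared, other thresholds, medians, pairs and spike-in scaling. The labels do not say whether replicates were grown on separate occasions. The p-values set a difference against the spread between these samples in the fit.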

Additional observations from a re-analysis of the deposited data

How the results depend on the processing

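The number of members, 130 as reported, was 203 at a threshold of -0.7, 68 at -1.0, 53 after poly-A spike-in scaling, and 66 to 220 when 1 array or 1 replicate number was left out (66 without replicate number 3, which was chosen after seeing the data; 220 without control replicate 1). A control mean of at least 5 left 130, group medians gave 164 and all pairs lower 124. Single arrays left out put the members called at 24 to 107 with cellobiose, 30 to 107 with chitin, 2 to 85 with OGs and 2 to 7 for the replicate number, and those called between elicitors at 0 except 0 to 3 for chitin against OGs. Over all probe sets the ranges were 773 to 2161, 879 to 2313 and 207 to 1369 against control, 2 to 8 for cellobiose against chitin, 1 to 29 for cellobiose against OGs, 2 to 105 for chitin against OGs, and 111 to 246 for the replicate number. With only the 2 groups compared, OGs against control had 146 calls, 10 of them members, and the 3 comparisons between elicitors had 0, 0 and 0. With a mean of at least 5, cellobiose against chitin and against OGs had 1 each, and with an intensity trend chitin against OGs had 37. The cause was not tested. With no replicate block the members called against control were 80, 81 and 44 with cellobiose, chitin and OGs. All probe sets called were then 1794, 1841 and 854, and cellobiose against OGs had 19 calls rather than 10. Deviations of same-numbered arrays from their group means correlated at -0.17 to 0.59, over 0.1 in 11 of 18 pairs, and 4 of 12 arrays correlated best with their own number. No change of the 30 named members turned its sign under the alternatives run. The rule chose them for low group means, and the spike-in scaling could bring none of them to control. Nothing is therefore read from the unchanged signs. Arrays carry no depth.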

Other observations

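In the annotation, 1 gene was listed for 32.3% of the members and for 59.4% of all tested probe sets, and none for the 11 deepest. Of the 42 named members, 16 lie on chromosome 1, 7 on chromosome 2, 6 on chromosome 3, 3 on chromosome 4 and 10 on chromosome 5, where all 13513 tested probe sets of 1 gene have 3451, 2200, 2746, 1962 and 3008 on these chromosomes.

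The members' median SD within a group was 0.36 log2 in controls, 0.46 with cellobiose, 0.30 with chitin and 0.50 with OGs. Over all tested probe sets it was 0.12, 0.12, 0.13 and 0.12. The members' median control mean was also higher, at 8.24 log2 beside 6.58 over all. SDs at matched levels were not compared.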
